A study of Mus musculus with 12 samples.

Results

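Glycosaminoglycan synthesis enzymes and the proteoglycan cores that carry the chains formed a set of 39 genes in bone marrow-derived macrophages (BMDMs), out of 55335 genes measured by bulk RNA-seq. The set was drawn up by gene symbol, as 6 enzymes of the linker, 13 of heparan sulfate, 14 of chondroitin and dermatan sulfate, the hyaluronan synthase Has2 and 5 cores. All 39 were found in the expression table, and 35 reached an FPKM (fragment count scaled to the length of the gene and to the mapped fragments of the library) of 1 or more in 3 libraries or more, the limit for testing. Members were chosen by their role in the pathway, after gene sets of glycosaminoglycan metabolism had been found to differ between the genotypes in these same FPKM values, so differences between genotypes are given below as a description without a test.

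The 12 libraries made 4 groups of 3, wild-type and Nlrp3-/- BMDMs, each as unstimulated control and after LPS followed by ATP. NLRP3 is the sensor of an inflammasome, a complex that activates caspase-1; LPS primes its expression and extracellular ATP sets it off. The labels give 4 hours of LPS and then 30 min of ATP, whereas the methods of the study give 12 hours and 2 hours, and 3 mM ATP. Cells came from mice aged 8 weeks and were grown with M-CSF for 7 days. The knockout was global and was made by a company, the wild-type mice were bought from another source, and whether they were littermates, how many mice were used and whether marrow was pooled were not stated. The labels do not say that replicates came from separate cultures or mice, so p-values measure the spread between these libraries, which may be technical.

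Nlrp3 was listed at 0 FPKM in all 6 Nlrp3-/- libraries, and measured 9.24, 9.71 and 10.1 FPKM in the wild-type control libraries and 32.1, 33.02 and 33.6 with LPS+ATP. Xist, an RNA of the silenced X chromosome in female cells, ranged over 32.8 to 56.3 FPKM with the Nlrp3-/- genotype and did not exceed 0.0416 with the wild-type one, so donor sex and genotype cannot be told apart. Nnt, a mitochondrial gene that is defective in some inbred mouse substrains, measured 4.09 to 10.3 FPKM in wild-type and 0.670 to 1.47 in Nlrp3-/- libraries, so that genetic background and genotype cannot be told apart either. Macrophage markers were present in every group, with a summed level of 7 markers of 19866 to 21046 FPKM in wild-type control, 11262 to 11335 in wild-type LPS+ATP, 18977 to 19222 in Nlrp3-/- control and 10580 to 10829 in Nlrp3-/- LPS+ATP, most of it Lyz2. Of these 7 markers 4 were lower in every Nlrp3-/- control library than in any wild-type one, at mean FPKM of 877 against 1450.4 for Cd68, 164 against 253 for Csf1r, 184 against 237 for Adgre1 and 38.5 against 51.2 for Fcgr1. Mertk was higher in every Nlrp3-/- control library, at 33.2 to 35.6 FPKM against 32.2 to 32.5 in wild-type control. Lyz2 and Itgam overlapped between the control groups. With LPS+ATP 5 markers were lower in every Nlrp3-/- library than in any wild-type one: Cd68, Adgre1, Fcgr1, Mertk and Lyz2. Mean FPKM there was 620 against 814 for Cd68, 327 against 460 for Adgre1, 124 against 204 for Fcgr1 and 16.7 against 18.8 for Mertk. Csf1r and Itgam overlapped between the stimulated groups. Markers of other cells differed between the groups. The 9 fibroblast markers summed to 151 to 157 FPKM in wild-type control, 168 to 170.5 in wild-type LPS+ATP, 1177 to 1195 in Nlrp3-/- control and 906 to 918 in Nlrp3-/- LPS+ATP, none of them at 0 in any group, and the 8 granulocyte markers to 334 to 369.5, 109 to 127, 1791 to 1842 and 489 to 519.9 in the same order. Of the 5 mast cell markers, Cma1 and Tpsb2 were listed at 0 in every library. Cpa3 and Kit were higher in every Nlrp3-/- control library than in any wild-type control one. Their mean FPKM there was 2.15 against 0.627 for Cpa3 and 1.34 against 0.473 for Kit. With LPS+ATP Kit was still higher without overlap, while Cpa3 overlapped between the genotypes. Fcer1a was above 0 only in Nlrp3-/- control replicates 1 and 3, at 0.197 and 0.188 FPKM. In bulk RNA a smaller number of cells of one kind and less RNA per cell cannot be told apart. The part of these other cells in the results below was not tested.

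Glycosaminoglycans are long sugar chains built in the Golgi. Heparan sulfate and chondroitin sulfate are both assembled on serines of a core protein through the same short linker, begun by a xylosyltransferase, and the next sugar commits the chain to one branch or the other. The chains are then polymerised, sulfated and epimerised, and extracellular sulfatases can trim heparan sulfate after export. Hyaluronan differs from both in that it is made at the plasma membrane without a core or sulfate. In macrophages the chains of syndecans and glypicans hold chemokines and growth factors at the cell surface.

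Per length of gene, the cores Sdc3, Sdc1 and Sdc4 had the highest mean FPKM of the 39 genes over the 12 libraries. Sdc3, a transmembrane syndecan, led them, with 121, 126 and 124 FPKM in the wild-type control libraries, 155, 157 and 155 in wild-type LPS+ATP, 100.5, 99.3 and 98.4 in Nlrp3-/- control and 144, 145 and 147 in Nlrp3-/- LPS+ATP. Xylt2 led the linker enzymes, Extl3 the polymerases of heparan sulfate, Ndst1 its modifying enzymes, Chpf2 the chondroitin polymerases and Chst12 the chondroitin sulfotransferases, by mean FPKM over the 12 libraries. Here and below, the polymerases of a branch include the enzymes that start its chain. These are Extl3 for heparan sulfate and Csgalnact1 and Csgalnact2 for chondroitin sulfate. The 4 genes that never reached 1 FPKM were the heparan 3-O-sulfotransferases Hs3st1, with a highest value of 0.701 FPKM, and Hs3st3b1 (0.104), the chondroitin synthase Chsy3 (0.514) and the chondroitin 6-O-sulfotransferase Chst3 (0.495). Hs6st2 passed the limit only through the 3 Nlrp3-/- LPS+ATP libraries, and Chst7 and Chst15 only through the 6 Nlrp3-/- libraries, so for these 3 genes the filter itself selected a difference, for Hs6st2 between stimulated and control Nlrp3-/- BMDMs as well as between genotypes, and for the others between genotypes. Whether reads were counted by strand was not stated, and Chpf2 shares 44.1% of its exon bases with Smarcd3 on the opposite strand, Gpc1 18.9% with Ankmy1 and Chst15 17.9% with Gm10584, so their values are uncertain to that extent. Smarcd3 itself measured 0.477 to 2.65 FPKM and Ankmy1 at most 0.275.

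**Figure D1:**
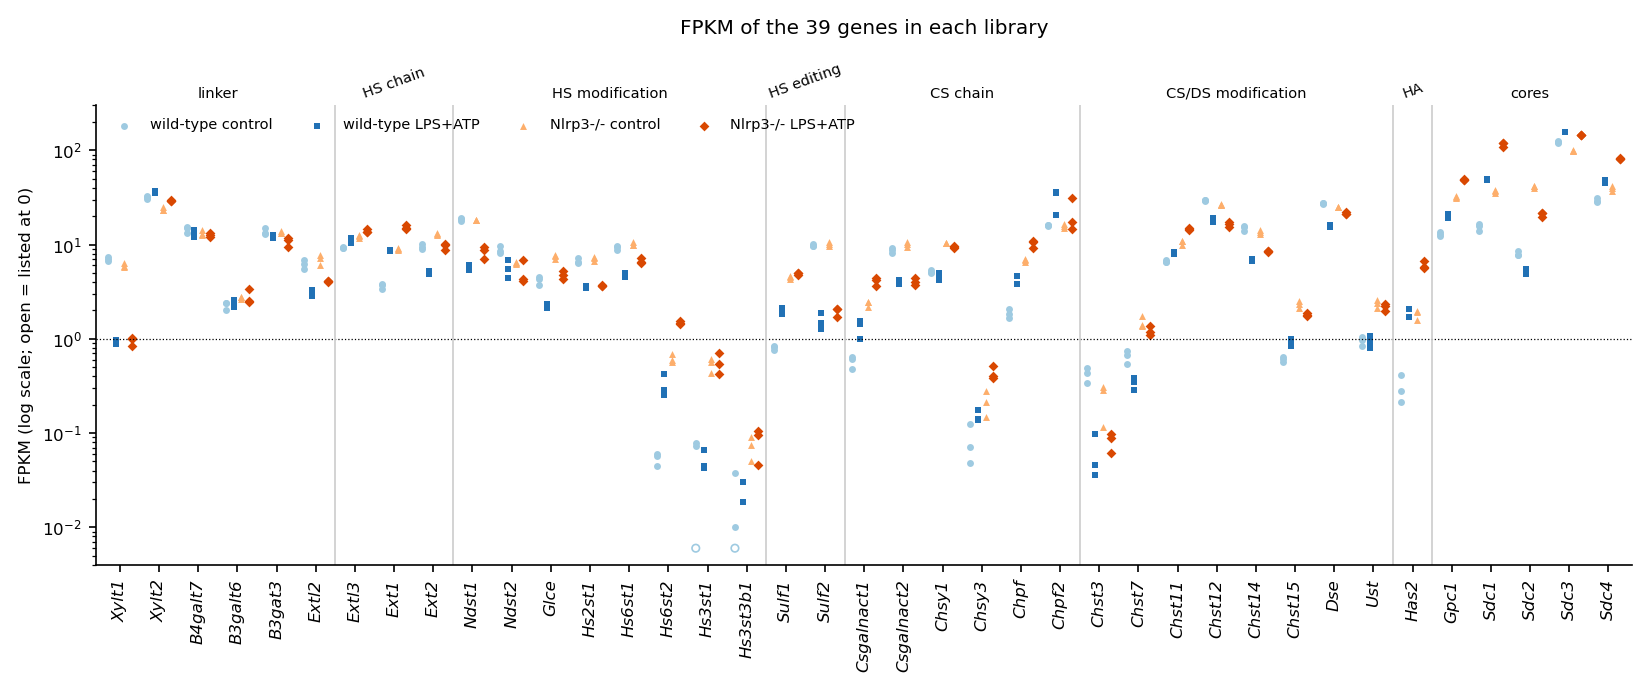
FPKM of each of the 39 genes (log scale) in each of the 12 libraries, with 3 points per group; HS is heparan sulfate, CS chondroitin sulfate, DS dermatan sulfate and HA hyaluronan, the dotted line marks 1 FPKM, and open symbols stand for values listed at 0. The 5 cores include the highest values, led by Sdc3, while Hs3st1, Hs3st3b1, Chsy3 and Chst3 stay under the line in every library.

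The first question was how LPS+ATP changed these genes in wild-type BMDMs. Among the tested members Xylt1 and Sulf2 fell the most, and Sdc1, Has2 and Ext1 were among those that rose. Here a gene is said to rise or fall where its Benjamini-Hochberg adjusted p from limma was under 0.05 over all 12622 tested genes, and is called a differentially expressed gene (DEG) where its log2 fold change of FPKM + 1 was also at least 1 in size. By the first criterion 15 of the 35 tested members rose and 17 fell, against 23.3% and 53.1% of all tested genes. DEGs were 3 higher members, against 8.25% of all tested genes, and 4 lower ones, against 11.2%. Libraries of the 2 states did not overlap for 15 higher and 17 lower members, and 23.9% and 54.2% of all tested genes were placed so.

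In Nlrp3-/- BMDMs 12 of the 35 members rose with LPS+ATP and 16 fell, where 20.6% of all tested genes rose and 53.8% fell. Hs6st2, which the filter kept for its high values in this stimulated group, is among the 12, and 11 of 34 rose without it. Again 3 members were higher DEGs, beside 6.64% of all tested genes, and 4 were lower DEGs, beside 8.21%. Non-overlapping libraries were found for 13 higher members (21.8% of all tested genes) and 16 lower ones (55.6%). Xylt1, Ndst1, Sulf2, Has2 and Sdc1 were DEGs in the same direction in both genotypes. On GRCm38 (GENCODE M21) 4 of these protein-coding genes lie at chr7:117380979-117673580 (Xylt1, plus strand), chr2:166073089-166155663 (Sulf2, minus strand), chr12:8771323-8793715 (Sdc1, plus strand) and chr15:56665627-56694539 (Has2, minus strand). Ext1 and Chst14 were DEGs in wild-type BMDMs alone, and Csgalnact2 and Sdc4 in Nlrp3-/- BMDMs alone, which by itself does not show a difference between genotypes. The interaction, tested further below, passed for Ext1, Chst14 and Sdc4 but not for Csgalnact2.

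Over all tested genes the median log2 fold change was -0.25 in wild-type and -0.24 in Nlrp3-/- BMDMs, and that of the members was -0.093 and -0.12. With libraries scaled by the median of gene ratios, the median of all genes moved to -0.019 and -0.0093 and that of the members to 0.14 and 0.13. The same scaling turned the split of DEGs over all genes from 42.5% higher to 60.8% in wild-type and from 44.7% to 64.6% in Nlrp3-/- BMDMs, and the members' DEGs from 3 higher and 4 lower to 5 and 3 in wild-type and to 3 and 2 in Nlrp3-/- BMDMs. Small falls are therefore read below together with their value under this scaling.

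**Figure D2:**
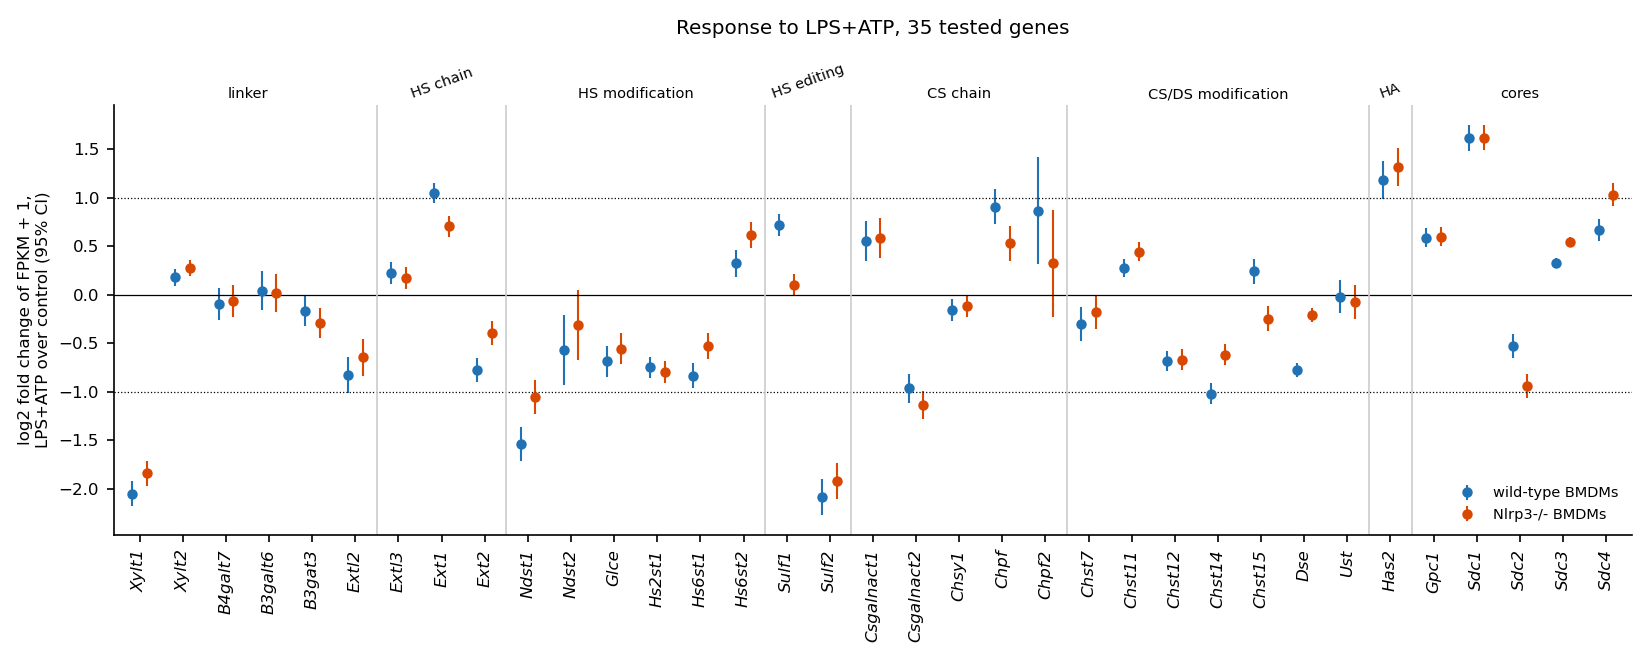
Log2 fold change of FPKM + 1 for LPS+ATP over control in the 35 tested genes, in the order of the pathway, with 95% confidence intervals from limma; blue is wild-type, orange Nlrp3-/-, and dotted lines mark a change of 1. Xylt1, Ndst1 and Sulf2 lie under -1 and Has2 and Sdc1 over 1 in both genotypes.

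At the linker, the paralogous xylosyltransferases that start every chain moved apart. Xylt1 fell by 7.51-fold in wild-type BMDMs, from 7.37, 6.64 and 7.09 FPKM in the control libraries to 0.951, 0.890 and 0.971 with LPS+ATP (log2 fold change -2.05, SE 0.058, adjusted p = 3.99e-11). In BMDMs without Nlrp3 it fell by 6.29-fold, from 5.91, 6.32 and 5.76 to 0.999, 0.832 and 1.03 FPKM (-1.84, SE 0.058, adjusted p = 1.4e-10). The groups were far apart and did not overlap in either genotype, and stimulated Xylt1 stayed near 1 FPKM in all 6 libraries. Xylt2 was 30.5, 32.2 and 32.7 FPKM in the wild-type control libraries, 36.5, 35.2 and 36.8 in wild-type LPS+ATP, 23.5, 25.04 and 23.2 in Nlrp3-/- control and 28.96, 28.7 and 29.8 in Nlrp3-/- LPS+ATP. It rose slightly in both, by 0.18 (adjusted p = 0.00135) in wild-type and 0.27 (adjusted p = 6.5e-05) in Nlrp3-/- BMDMs. The ratio of Xylt2 to Xylt1 FPKM accordingly went from 4.53 ± 0.36 to 38.6 ± 0.87 (mean ± SD, n = 3) in wild-type and from 3.99 ± 0.034 to 30.8 ± 3.2 in Nlrp3-/- BMDMs.

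The changes of the enzymes that add the remaining linker sugars were smaller. B4galt7 and B3galt6, the galactosyltransferases, stayed within 12.03 to 15.2 and 2.01 to 3.34 FPKM over all libraries, and neither passed the test in either genotype (adjusted p from 0.28 to 0.89). Under median-ratio scaling both passed as rises, B4galt7 at 0.20 (adjusted p = 0.0317) in wild-type and 0.21 (adjusted p = 0.0314) in Nlrp3-/- BMDMs and B3galt6 at 0.27 (adjusted p = 0.0186) and 0.23 (adjusted p = 0.043). As deposited, the changes of B4galt7 had 95% intervals of -0.26 to 0.073 in wild-type and -0.23 to 0.098 in Nlrp3-/- BMDMs on the log2 scale. B3gat3, which adds the closing glucuronic acid, fell by 0.16 (adjusted p = 0.0495) on the log2 scale in wild-type and dropped by 0.29 (adjusted p = 0.0026) in Nlrp3-/- BMDMs, but under median-ratio scaling these became 0.13 and -0.019 with adjusted p of 0.119 and 0.831. Extl2, which can cap the linker with an N-acetylhexosamine, fell in both, from 6.22 ± 0.7 to 3.06 ± 0.23 FPKM in wild-type (mean ± SD, n = 3; log2 fold change -0.83, adjusted p = 3.68e-06) and from 6.97 ± 0.8 to 4.07 ± 0.052 in Nlrp3-/- BMDMs (-0.65, adjusted p = 3.45e-05).

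Of the polymerases of heparan sulfate, Ext1 and Ext2, which work as a complex, went in opposite directions. Ext1 rose 2.37-fold in wild-type BMDMs, from 3.81, 3.39 and 3.71 to 8.51, 8.56 and 8.75 FPKM (1.05, SE 0.048, adjusted p = 2.76e-09), and 1.70-fold in Nlrp3-/- BMDMs, from 9.18, 8.78 and 8.88 to 14.5, 15.1 and 16.1 FPKM (0.71, SE 0.048, adjusted p = 1.24e-07). Every stimulated library lay above every control library of its genotype. Ext2 fell from 8.92, 10.02 and 9.40 to 5.18, 5.27 and 4.86 FPKM in wild-type (-0.77, adjusted p = 1.78e-07) and from 12.7, 13.2 and 12.9 to 9.98, 10.1 and 8.84 in Nlrp3-/- BMDMs (-0.39, adjusted p = 6.97e-05), the latter -0.12 with an adjusted p of 0.105 under median-ratio scaling. Extl3, which adds the first sugar that commits a chain to heparan sulfate, measured 9.11, 9.45 and 9.16 FPKM in the wild-type control libraries, 10.5, 11.8 and 10.7 in wild-type LPS+ATP, 11.8, 12.2 and 12.7 in Nlrp3-/- control and 13.5, 13.6 and 14.8 in Nlrp3-/- LPS+ATP. Its rises of 0.23 (adjusted p = 0.00195) in wild-type and 0.17 (adjusted p = 0.011) in Nlrp3-/- BMDMs were small beside those of Ext1.

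Of the 6 tested enzymes that modify the heparan chain inside the cell, 5 fell in wild-type and 4 in Nlrp3-/- BMDMs, where 53.1% and 53.8% of all tested genes fell, so these counts say nothing particular about the step. Ndst1, the N-deacetylase and N-sulfotransferase on which the later sulfations depend, fell from 18.6, 17.8 and 19.3 to 6.09, 5.73 and 5.32 FPKM in wild-type, 3.25-fold (-1.54, SE 0.079, adjusted p = 8.28e-09). In Nlrp3-/- BMDMs it fell from 18.2, 18.3 and 18.4 to 8.70, 7.08 and 9.32 FPKM, 2.19-fold (-1.05, SE 0.079, adjusted p = 3.21e-07). The latter was no longer a DEG under median-ratio scaling (-0.77) or without Nlrp3-/- LPS+ATP replicate 2 (-0.95), while its direction stayed. Control levels of Ndst1 overlapped between the genotypes, and stimulated levels were lower in every wild-type library than in any Nlrp3-/- one.

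Hs2st1, the 2-O-sulfotransferase, fell from 6.72 ± 0.42 to 3.58 ± 0.086 FPKM in wild-type (-0.75, adjusted p = 7.58e-08) and from 7.11 ± 0.31 to 3.66 ± 0.069 in Nlrp3-/- BMDMs (-0.80, adjusted p = 5.8e-08). Hs6st1, the main 6-O-sulfotransferase by level, fell from 9.26 ± 0.52 to 4.75 ± 0.26 (-0.84, adjusted p = 1.42e-07) and from 10.2 ± 0.48 to 6.77 ± 0.45 FPKM (-0.53, adjusted p = 8.82e-06). Glce, the epimerase that turns glucuronic into iduronic acid, fell from 4.17 ± 0.37 to 2.21 ± 0.13 (-0.69, adjusted p = 4.9e-06) and from 7.42 ± 0.38 to 4.73 ± 0.46 FPKM (-0.56, adjusted p = 3.32e-05). Ndst2, a second N-deacetylase and N-sulfotransferase, varied more among stimulated libraries, at 4.43, 6.91 and 5.50 FPKM in wild-type and 4.10, 4.35 and 6.79 in Nlrp3-/- BMDMs. Its wild-type change was -0.57 (adjusted p = 0.0074), or -0.30 with an adjusted p of 0.127 under median-ratio scaling, and its Nlrp3-/- change -0.31 (adjusted p = 0.102).

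Hs6st2 is a paralogue of Hs6st1 and lies on chromosome X. It was higher with LPS+ATP in both genotypes, going from 0.0447, 0.0592 and 0.0577 to 0.422, 0.286 and 0.256 FPKM in wild-type (0.32, adjusted p = 0.000582) and from 0.692, 0.598 and 0.573 to 1.42, 1.47 and 1.56 FPKM in Nlrp3-/- BMDMs (0.62). The latter change is given without a test, because the gene was kept for its values in the stimulated Nlrp3-/- group. Only stimulated Nlrp3-/- libraries exceeded 1 FPKM, and a log2 change of FPKM + 1 understates the change of a gene at this level.

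The extracellular endosulfatases Sulf1 and Sulf2, which remove 6-O-sulfates from finished heparan chains, went in different directions. Sulf2 fell 6.33-fold in wild-type BMDMs, from 9.56, 10.2 and 9.59 to 1.88, 1.28 and 1.48 FPKM (-2.09, SE 0.084, adjusted p = 9.64e-10), and 5.23-fold in Nlrp3-/- BMDMs, from 10.2, 10.6 and 9.75 to 2.08, 2.07 and 1.69 FPKM (-1.93, SE 0.084, adjusted p = 2.67e-09). The genotypes overlapped in both states, with all 6 control libraries high and all 6 stimulated ones low. Sulf1 rose from 0.819, 0.832 and 0.756 to 1.83, 1.95 and 2.12 FPKM in wild-type (0.72, SE 0.05, adjusted p = 1.22e-07) and measured 4.55, 4.36 and 4.65 and 4.80, 4.96 and 4.97 FPKM in the Nlrp3-/- control and LPS+ATP libraries (0.10, adjusted p = 0.092). The latter passed the test under median-ratio scaling (0.34, adjusted p = 9.55e-05). The ratio of Sulf2 to Sulf1 FPKM was 11.7, 12.3 and 12.7 in the wild-type control libraries and 1.02, 0.659 and 0.699 after LPS+ATP, and 2.24, 2.44 and 2.10 and 0.434, 0.418 and 0.339 in Nlrp3-/- BMDMs. Sulf2 thus exceeded Sulf1 in all 6 control libraries, and Sulf1 exceeded Sulf2 in 5 of the 6 stimulated ones.

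On the chondroitin branch, the enzymes that start the chain also moved apart. Csgalnact1 and Csgalnact2 both add the first N-acetylgalactosamine. Csgalnact2 fell from 9.16, 8.21 and 8.77 to 4.25, 3.86 and 3.79 FPKM in wild-type (-0.97, SE 0.067, adjusted p = 1.22e-07) and from 10.7, 10.2 and 9.33 to 4.38, 3.73 and 3.99 in Nlrp3-/- BMDMs (-1.14, SE 0.067, adjusted p = 3.8e-08, or -0.87 and no longer a DEG under median-ratio scaling). Csgalnact1 rose from 0.478, 0.642 and 0.615 to 1.53, 1.45 and 1.00 FPKM (0.55, SE 0.093, adjusted p = 0.000223) and from 2.48, 2.20 and 2.43 to 4.20, 3.64 and 4.37 FPKM (0.59, SE 0.093, adjusted p = 0.000158). Control libraries held several times more Csgalnact2 than Csgalnact1, and in stimulated Nlrp3-/- BMDMs the FPKM of both were about equal, with ratios of 1.04, 1.02 and 0.912.

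Among the chondroitin polymerases, Chpf, a factor that works with the synthases, rose from 1.66, 2.08 and 1.85 to 4.64, 3.81 and 4.69 FPKM in wild-type (0.91, SE 0.082, adjusted p = 1.2e-06) and from 6.53, 6.85 and 6.98 to 9.26, 10.7 and 10.8 in Nlrp3-/- BMDMs (0.53, SE 0.082, adjusted p = 0.000123). The synthase Chsy1 changed little, by -0.16 (adjusted p = 0.0137) in wild-type and -0.12 (adjusted p = 0.0483) in Nlrp3-/- BMDMs, and these falls turned to 0.10 and 0.15 under median-ratio scaling. Chpf2 measured 15.9, 15.99 and 15.9 FPKM in the wild-type control libraries, 20.8, 35.9 and 35.6 in wild-type LPS+ATP, 15.6, 16.6 and 15.04 in Nlrp3-/- control and 14.7, 17.2 and 31.2 in Nlrp3-/- LPS+ATP. The stimulated libraries of each genotype spread widely, with 1 low library in wild-type and 1 high library in Nlrp3-/- BMDMs, while the 6 control libraries lay within 15.04 to 16.6. Its change was 0.86, SE 0.25, adjusted p = 0.00814 in wild-type, 1.117 without wild-type LPS+ATP replicate 1, and 0.32, SE 0.25, adjusted p = 0.259 in Nlrp3-/- BMDMs.

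Of the enzymes that modify chondroitin and dermatan sulfate, the most abundant fell. Chst12, a 4-O-sulfotransferase, fell from 29.02, 29.8 and 29.99 to 18.99, 17.3 and 17.8 FPKM in wild-type (-0.69, adjusted p = 1.14e-07) and from 26.6, 27.02 and 26.2 to 17.2, 16.6 and 15.2 in Nlrp3-/- BMDMs (-0.67, adjusted p = 1.81e-07). Chst14, which sulfates dermatan, fell from 13.97, 15.2 and 15.7 to 6.99, 6.93 and 6.70 FPKM (-1.02, SE 0.049, adjusted p = 4.48e-09) and from 13.7, 12.8 and 14.1 to 8.33, 8.45 and 8.59 (-0.62, SE 0.049, adjusted p = 4.67e-07). The wild-type value sat at the limit for a DEG, and was -0.74 under median-ratio scaling and -0.99 without wild-type control replicate 3. Dse, the epimerase that makes dermatan from chondroitin sulfate, fell from 27.1, 27.4 and 27.8 to 16.003, 15.3 and 15.4 FPKM in wild-type (-0.78, adjusted p = 1.54e-09) and from 25.1, 24.9 and 25.1 to 20.9, 21.3 and 22.3 in Nlrp3-/- BMDMs (-0.21, adjusted p = 0.000142), and the latter became 0.075 under median-ratio scaling.

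Chst11, another 4-O-sulfotransferase, went the other way, from 6.59 ± 0.19 to 8.17 ± 0.22 FPKM in wild-type (0.27, adjusted p = 0.000142) and from 10.5 ± 0.55 to 14.7 ± 0.3 in Nlrp3-/- BMDMs (0.44, adjusted p = 3.09e-06). Chst15, which adds a further sulfate to residues already sulfated at position 4, rose from 0.636, 0.607 and 0.569 to 0.874, 0.988 and 0.832 FPKM in wild-type (0.24, adjusted p = 0.003). In Nlrp3-/- BMDMs it fell from 2.33, 2.54 and 2.13 to 1.75, 1.87 and 1.80 (-0.25, adjusted p = 0.00274), or -0.046 with an adjusted p of 0.526 under median-ratio scaling. The X-linked 6-O-sulfotransferase Chst7 fell in wild-type BMDMs (-0.30, adjusted p = 0.00476) and gave -0.18 (adjusted p = 0.0615) in Nlrp3-/- BMDMs. Ust, the uronyl 2-O-sulfotransferase, did not pass in either genotype, with 95% intervals of -0.19 to 0.15 and -0.25 to 0.097.

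Has2, the only hyaluronan synthase among the members, rose in both genotypes. Wild-type control libraries held 0.212, 0.277 and 0.414 FPKM and stimulated ones 1.71, 2.05 and 2.08, a 6.48-fold ratio of means (1.18, SE 0.088, adjusted p = 2.35e-07). Nlrp3-/- control libraries held 1.95, 1.596 and 1.95 FPKM and stimulated ones 5.66, 5.71 and 6.74, a 3.30-fold ratio (1.31, SE 0.088, adjusted p = 1.19e-07). By ratio of means the rise was larger in wild-type BMDMs. The log2 change of FPKM + 1, which understates the change of low genes, was not larger there. Stimulated wild-type and control Nlrp3-/- libraries overlapped at about 2 FPKM.

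The proteoglycan cores mostly rose. Sdc1, a syndecan, rose from 13.8, 15.6 and 16.4 to 49.5, 48.7 and 48.3 FPKM in wild-type, 3.20-fold (1.62, SE 0.06, adjusted p = 4.46e-10). In Nlrp3-/- BMDMs it rose from 35.5, 37.2 and 37.9 to 120.0, 119 and 107 FPKM, 3.13-fold (1.62, SE 0.06, adjusted p = 6.09e-10). The interaction, the difference between these log2 changes, was 0.0024 with a 95% interval of -0.18 to 0.19. Sdc4, another syndecan, rose from 31.1, 28.1 and 28.8 to 44.7, 47.8 and 48.9 FPKM in wild-type (0.67, SE 0.052, adjusted p = 3.68e-07) and from 40.1, 41.4 and 36.7 to 80.6, 80.5 and 83.4 in Nlrp3-/- BMDMs (1.03, SE 0.052, adjusted p = 1.03e-08, or 0.98 and under the DEG limit without Nlrp3-/- control replicate 3). Sdc3, whose levels are given above, rose by 0.33 (adjusted p = 1.83e-07) on the log2 scale in wild-type and 0.54 (adjusted p = 2.86e-09) in Nlrp3-/- BMDMs.

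Gpc1, a glypican held to the membrane by a lipid anchor, rose from 12.3, 13.6 and 13.03 to 19.2, 21.1 and 19.7 FPKM in wild-type (0.58, SE 0.044, adjusted p = 2.56e-07) and from 31.1, 32.3 and 32.5 to 49.4, 48.9 and 48.3 in Nlrp3-/- BMDMs (0.60, SE 0.044, adjusted p = 2.74e-07). Sdc2 was the core that fell, from 8.45, 7.71 and 7.69 to 5.52, 5.26 and 4.84 FPKM in wild-type (-0.53, SE 0.056, adjusted p = 4.64e-06) and from 40.01, 41.5 and 41.6 to 21.8, 19.6 and 21.5 in Nlrp3-/- BMDMs (-0.94, SE 0.056, adjusted p = 3.94e-08). Sdc1 made up 8.07 ± 0.61% of the summed FPKM of the 5 cores in wild-type control and 17.6 ± 0.37% in wild-type LPS+ATP (SD, n = 3), and 14.8 ± 0.49% and 28.01 ± 1.5% in the Nlrp3-/- groups. Sdc3 went from 65.3 ± 0.61% to 56.2 ± 0.33% in wild-type and from 39.97 ± 0.61% to 35.3 ± 0.71% in Nlrp3-/- BMDMs.

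**Figure D3:**
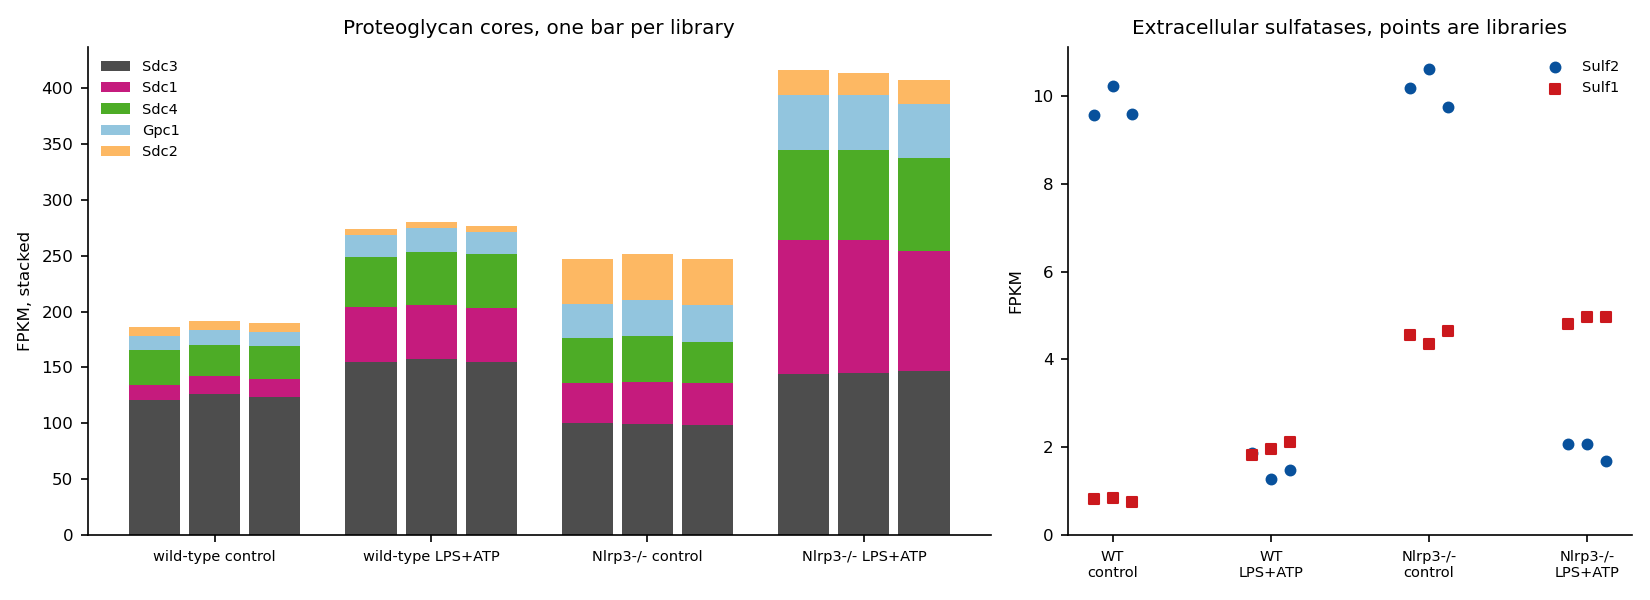
Left, FPKM of the 5 proteoglycan cores stacked for each library; right, FPKM of the endosulfatases Sulf1 and Sulf2, with 3 points per group. The Sdc1 segment grows with LPS+ATP in both genotypes, from a mean of 15.3 to 48.8 FPKM and from 36.9 to 115, while Sulf2 drops below or near Sulf1.

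Promoters of 29 of the 39 genes, 35 sequences in all, were matched in RefSeq (GRCm38.p6), and 250 bases before each start were searched on both strands for letters bound by NF-kB (GGGNNTTCC), a factor that LPS activates, and by AP-1 (TGANTCA). Xylt1, Ndst1, Has2, Ext1, Extl3, Sulf1, Csgalnact1, Chsy3, Gpc1 and Sdc2 had no matched promoter and were not searched. The first 4 of these were DEGs for LPS+ATP. The NF-kB letters were found in 4.98% of all 32851 promoters and in those of 2 members, Sdc4 and Ust, and the AP-1 letters in 6.75% of all and in 1 member, Csgalnact2. Ust did not pass the test for LPS+ATP in either genotype. The promoters of Sdc4, which holds the NF-kB letters (in capitals), and of the DEGs Sdc1 and Sulf2, which hold neither motif, are shown for comparison, 5′ to 3′ on the gene's strand; the Sulf2 window is that of the more upstream of the starts listed. They lie at chr2:164443189-164443438 (minus strand), chr12:8771146-8771322 (plus strand, ending before the first GENCODE exon) and chr2:166155684-166155933 (minus strand). A match of letters is a description and not a bound site.
Sdc4: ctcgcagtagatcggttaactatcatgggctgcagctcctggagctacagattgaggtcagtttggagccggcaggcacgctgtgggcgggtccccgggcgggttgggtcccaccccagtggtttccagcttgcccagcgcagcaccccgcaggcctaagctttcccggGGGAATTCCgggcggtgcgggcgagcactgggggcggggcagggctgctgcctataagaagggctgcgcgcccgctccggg
Sdc1: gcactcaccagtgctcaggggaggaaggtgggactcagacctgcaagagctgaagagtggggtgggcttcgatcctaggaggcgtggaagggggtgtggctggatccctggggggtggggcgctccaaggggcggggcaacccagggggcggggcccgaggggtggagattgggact
Sulf2: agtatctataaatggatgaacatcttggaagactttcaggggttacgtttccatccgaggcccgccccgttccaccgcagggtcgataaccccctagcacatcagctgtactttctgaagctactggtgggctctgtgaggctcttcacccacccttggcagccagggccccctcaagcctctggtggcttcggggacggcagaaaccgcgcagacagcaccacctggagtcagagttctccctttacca

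Summed over the members of each step, the heparan modification enzymes and the cores moved in opposite directions. The 8 modification enzymes together measured 49.6, 46.7 and 46.4 FPKM in wild-type control and 21.5, 23.1 and 22.2 in LPS+ATP, and 50.4, 51.6 and 50.1 and 29.2, 28.4 and 34.5 in Nlrp3-/- BMDMs. The heparan polymerases summed to 22.3 ± 0.51 and 24.7 ± 0.82 FPKM in wild-type and to 34.1 ± 0.4 and 38.8 ± 0.84 in Nlrp3-/- BMDMs, so that their sum did not fall with that of the modifying enzymes. Cores summed to 187, 191 and 189.5 FPKM in wild-type control, 274, 280.1 and 276 in wild-type LPS+ATP, 247, 252 and 247 in Nlrp3-/- control and 416, 413 and 407 in Nlrp3-/- LPS+ATP. These sums are descriptions, and the steps were not tested as sets.

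Enzymes that modify chondroitin and dermatan sulfate summed to 81.2 ± 1.4 and 50.9 ± 1 FPKM in wild-type and to 82.1 ± 0.42 and 66.3 ± 0.44 in Nlrp3-/- BMDMs. All step sums are of FPKM as deposited, without median-ratio scaling. Under that scaling the change of Dse, 1 of these enzymes, was 0.075 in Nlrp3-/- BMDMs, so small falls of a sum may depend on the scaling. The chondroitin polymerases without Chpf2, with Csgalnact1 and Csgalnact2 counted, summed to 16.4 ± 0.29 and 14.3 ± 0.42 FPKM in wild-type and to 29.8 ± 0.48 and 28.2 ± 0.95 in Nlrp3-/- BMDMs. With Chpf2 the stimulated sums spread as Chpf2 did. All enzymes of the chondroitin branch without Chpf2 stood to all of the heparan branch as 1.21 ± 0.039 in wild-type control, 1.29 ± 0.057 in wild-type LPS+ATP, 1.124 ± 0.013 in Nlrp3-/- control and 1.238 ± 0.055 in Nlrp3-/- LPS+ATP. With Chpf2 the ratios in the same order were 1.41 ± 0.043, 1.90 ± 0.11, 1.28 ± 0.013 and 1.51 ± 0.047, so the size of the shift depended on this gene.

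**Figure D4:**
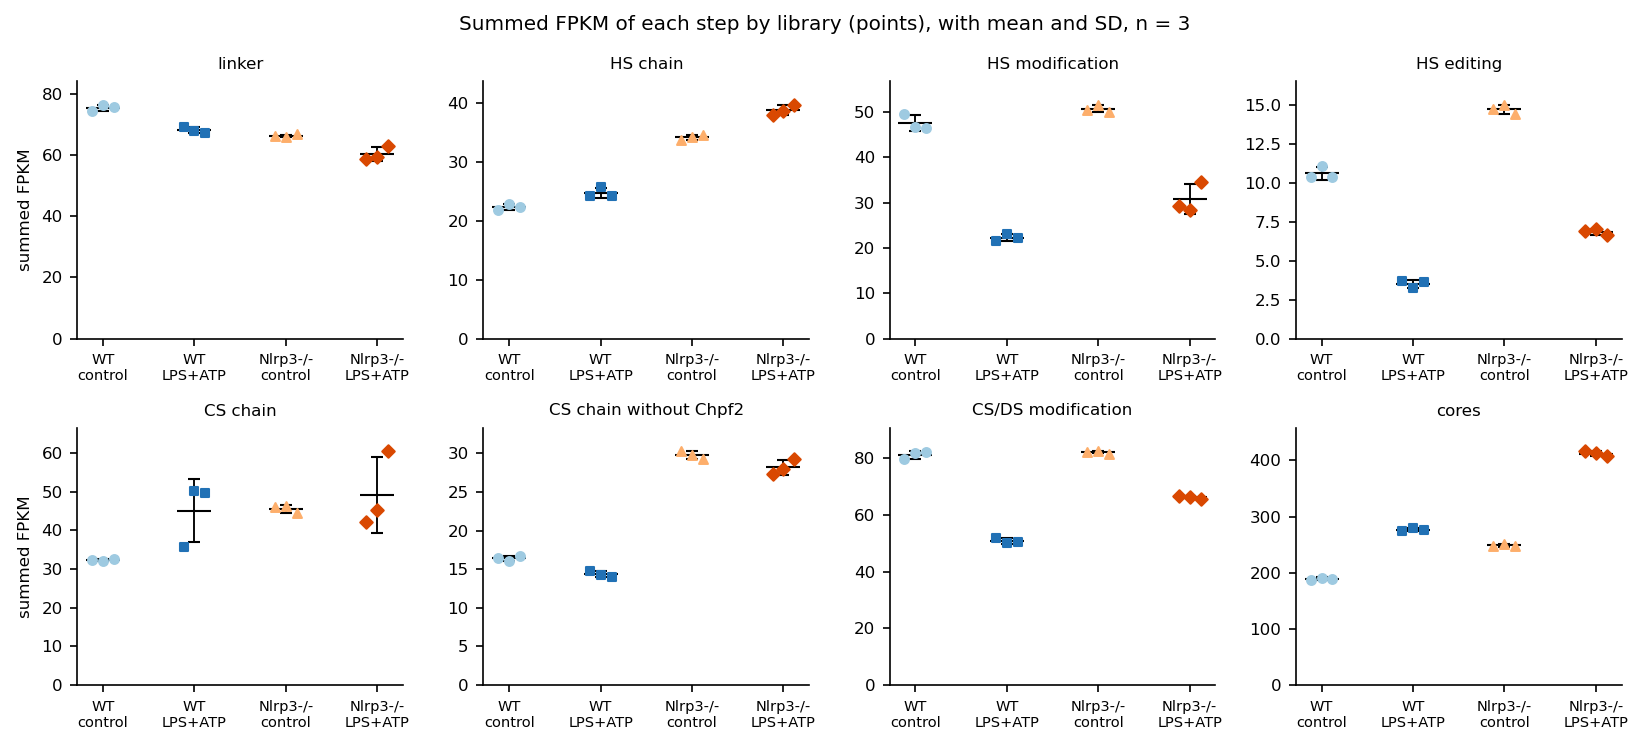
Summed FPKM of the members of each step, from 0, with 1 point per library and black bars for mean and SD (n = 3). Heparan modification drops from a mean of 47.6 to 22.3 FPKM in wild-type and the cores climb from 189 to 277, with the stimulated chondroitin chain sums spread by Chpf2.

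Whether the response itself differed between the genotypes was asked with the interaction, the Nlrp3-/- change minus the wild-type change. It equals the genotype difference with LPS+ATP minus that without. Since the members were chosen with genotype differences in these values known, its p-values are not free of that choice. By limma, 0 members reached 1 in size with an adjusted p under 0.05, beside 2.15% of all tested genes. Without the limit on size, 13 of the 35 passed, beside 27.7% of all tested genes, and 15 members and 38.3% of all tested genes had an unadjusted p under 0.05. Positive terms were found for 8 members (14.7% of all tested genes) and negative ones for 5 (13%). Without Hs6st2, which the filter kept for 1 of the groups compared, 12 of 34 passed, 7 of them positive.

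Among genes that fell, the fall was smaller in Nlrp3-/- BMDMs for Dse (0.57, SE 0.047, adjusted p = 7.61e-06), Ndst1 (0.49, SE 0.11, adjusted p = 0.00739), Chst14 (0.40, SE 0.069, adjusted p = 0.00143), Ext2 (0.38, adjusted p = 0.00442) and Hs6st1 (0.30, adjusted p = 0.0194). The term of Xylt1 did not pass as deposited (0.21, adjusted p = 0.0821) and passed under median-ratio scaling (0.27, adjusted p = 0.0324). Sdc2 fell further in Nlrp3-/- BMDMs (-0.41, adjusted p = 0.00273). Among genes that rose, the term was negative for Sulf1 (-0.62, SE 0.071, adjusted p = 7.93e-05), Chpf (-0.38, adjusted p = 0.0324) and Ext1 (-0.35, adjusted p = 0.00301), and positive for Sdc4 (0.37, adjusted p = 0.0039) and Sdc3 (0.21, adjusted p = 0.000802). Chst15 rose in wild-type and fell in Nlrp3-/- BMDMs (-0.49, adjusted p = 0.00131), with the fall lost under median-ratio scaling as given above. The term of Hs6st2 was 0.29, turned to -0.30 with a pseudocount of 0.1 and is given without a test. Its ratio of mean FPKM, LPS+ATP over control, was 5.97 in wild-type and 2.39 in Nlrp3-/- BMDMs. In the same libraries the 9 fibroblast markers had a median ratio of LPS+ATP to control of 1.25 in wild-type and 0.797 in Nlrp3-/- BMDMs, and the part of these cells in the interaction was not tested.

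The genotypes were compared last, without and with stimulation, and the values are given as a description. The difference was positive, that is higher in Nlrp3-/- BMDMs, for 24 of the 35 tested members without stimulation and 28 with LPS+ATP, or 20 and 25 under median-ratio scaling. It was at least 1 on the log2 scale for 9 members without stimulation and for 6 with LPS+ATP, and none was as much lower. Over all tested genes 6.08% and 4.52% were that much higher and 0.729% and 0.586% as much lower. Libraries did not overlap for 21 higher and 6 lower members without stimulation (38% and 18% of all tested genes) and for 23 higher and 4 lower members with LPS+ATP (41.7% and 16.2%). Hs6st2, Chst7 and Chst15, which the filter kept for their Nlrp3-/- values, are counted among the positive and the non-overlapping higher members in both states. Chst15 is also among the 9 without stimulation. The members' median difference was 0.37 without and 0.47 with stimulation, where that of all tested genes was 0.088 and 0.11. Median-ratio scaling moved these to 0.19 and 0.29 for the members and -0.066 and -0.061 for all genes, and the higher share of DEGs over all genes from 89.7% to 79.6% without and from 88.7% to 77.5% with stimulation. With a filter of 5 FPKM, which 28 members passed, the medians were 0.14 and 0.38 for members and 0.056 and 0.084 for all genes. Without a filter they were 0.19 and 0.44 for members and 0.017 and 0.014 for all genes.

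Csgalnact1, Chpf, Has2, Gpc1, Sdc1 and Sdc2 were at least 1 apart in both states, with no overlap of libraries. Their values in every library are given with the stimulation results above. Of these 6 genes Sdc2 had the largest log2 difference of FPKM + 1 in both states, though Has2 had the larger ratio of means without stimulation. Sdc2 was 5.16-fold higher in Nlrp3-/- BMDMs without stimulation (log2 difference 2.23, SE 0.056) and 4.03-fold with LPS+ATP (1.82, SE 0.056). Gpc1 was 2.46-fold (1.238, SE 0.044) and 2.44-fold higher (1.25, SE 0.044), and Sdc1 2.41-fold (1.22, SE 0.06) and 2.37-fold higher (1.22, SE 0.06). Has2 differed by 6.08-fold (1.122, SE 0.088) and 3.10-fold (1.25, SE 0.088), Csgalnact1 by 4.10-fold (1.10, SE 0.093) and 3.07-fold (1.13, SE 0.093), and Chpf by 3.64-fold (1.44, SE 0.082) and 2.34-fold (1.07, SE 0.082).

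Ext1, Sulf1 and Chst15 were at least 1 apart without stimulation and less so with it. For Ext1 the log2 difference was 1.10, SE 0.048 without and 0.76, SE 0.048 with LPS+ATP. For Sulf1 it was 1.61, SE 0.05 and 0.996, and for Chst15 1.05, SE 0.059 and 0.56, SE 0.059. By step, the median difference without stimulation was 1.22 over the cores, 0.88 over the chondroitin polymerases, 0.60 over the chondroitin modifying enzymes, 0.42 over the heparan polymerases, 0.10 over the heparan modifying enzymes and -0.069 over the linker enzymes. The X-linked Hs6st2 and Chst7 were 11.5-fold and 2.32-fold higher in Nlrp3-/- control, at 0.621 ± 0.063 and 1.52 ± 0.22 FPKM. Xylt2 and Sdc3 were lower in Nlrp3-/- BMDMs in both states, with log2 differences of -0.40 and -0.30 for Xylt2 and -0.31 and -0.097 for Sdc3.

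All 9 fibroblast markers were higher in the Nlrp3-/- libraries too, with no overlap in either state. Their ratios of mean FPKM ran from 2.97 to 11.98 without stimulation (median 5.73) and from 1.76 to 6.68 with LPS+ATP (median 4.55). Col1a1, a collagen chain that fibroblasts make in large amounts, measured 70.1, 72.1 and 71.2 FPKM in the wild-type control libraries, 82.4, 80.99 and 82.1 in wild-type LPS+ATP, 652, 660.0 and 643 in Nlrp3-/- control and 505, 509 and 510.1 in Nlrp3-/- LPS+ATP. Of the 8 granulocyte markers, 8 without stimulation and 7 with it were higher in every Nlrp3-/- library than in any wild-type one. The part of these cells, of donor sex and of genetic background in the differences between genotypes was not tested.

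**Figure D5:**
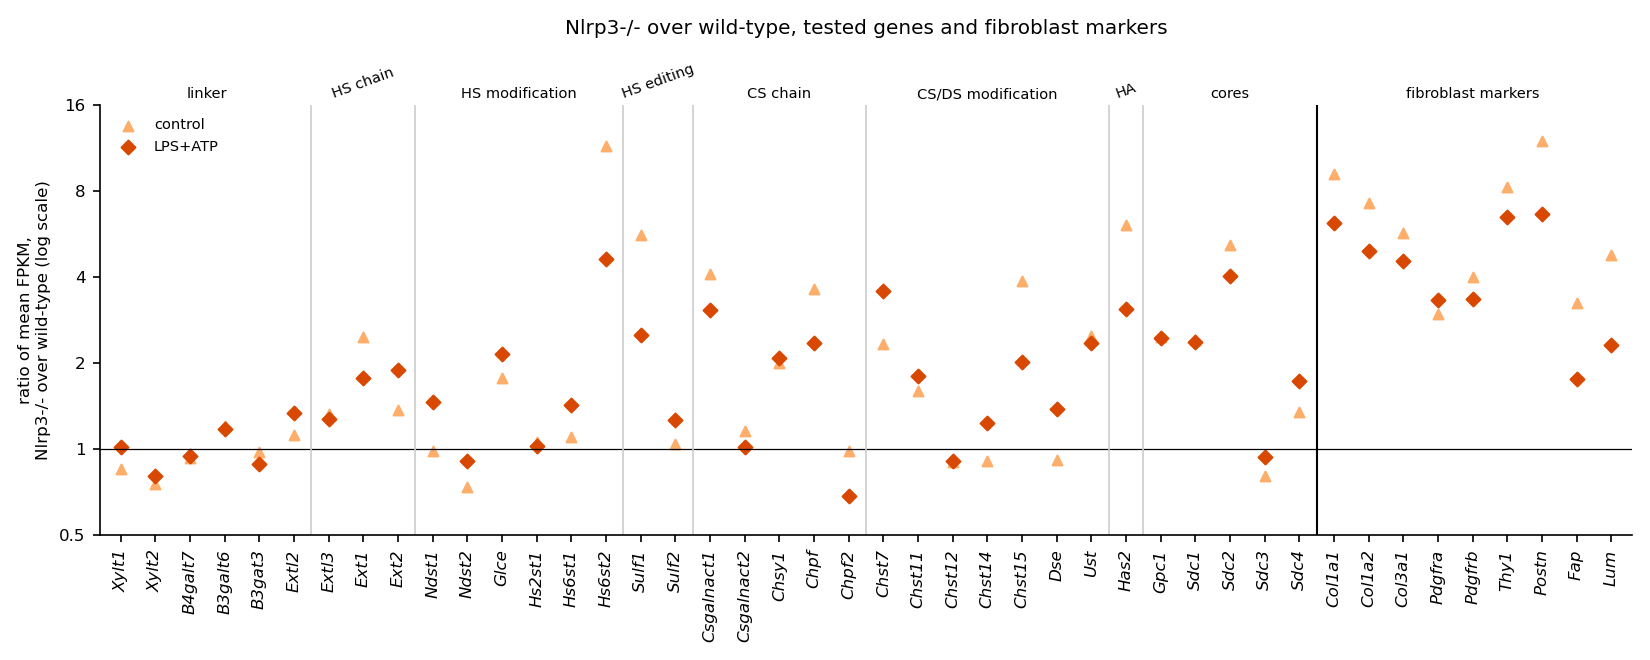
Ratio of mean FPKM in Nlrp3-/- over wild-type BMDMs (log scale), without stimulation (triangles) and with LPS+ATP (diamonds), for the 35 tested genes in the order of the pathway and, right of the black line, the 9 fibroblast markers. The fibroblast markers run from 1.76 to 11.98, and Sdc2 from 4.03 to 5.16, while the linker enzymes lie near 1.

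The 39 genes leave out other cores, precursor suppliers and the enzymes that break the chains down. Of 73 such genes listed, 48 passed the limit on FPKM. With LPS+ATP in wild-type BMDMs 4 were higher DEGs (8.25% of all tested genes) and 8 lower ones (11.2%), a further 13 rose and 16 fell without reaching the fold limit, and 7 did not pass. The counts in Nlrp3-/- BMDMs were 2 (6.64% of all tested genes were higher DEGs), 8 (8.21% were lower DEGs), 11, 19 and 8. Esm1 and Gpc6 reached the limit only through the Nlrp3-/- control libraries, and Extl1 only through the stimulated Nlrp3-/- ones. For these genes the filter itself selected a change in Nlrp3-/- BMDMs and a difference between genotypes. Cemip reached the limit only through Nlrp3-/- libraries, in both states, so for it the filter selected a difference between genotypes. All of them are kept among the 48, and Esm1 is counted among the 8 lower DEGs in Nlrp3-/- BMDMs. Among the 15 tested enzymes of degradation, 12 fell in wild-type BMDMs and 11 in Nlrp3-/- ones, where 53.1% and 53.8% of all tested genes fell. For the interaction 1 was a higher DEG and 1 a lower one, beside 2.15% of all tested genes in either direction. As a description, the log2 difference between genotypes was at least 1 in size for 9 higher genes and 1 lower gene of the 48 without stimulation, and for 6 higher and 0 lower ones with it, beside the 6.08%, 0.729%, 4.52% and 0.586% of all tested genes given above. Esm1 and Cemip, which the filter kept for their Nlrp3-/- values, are among the 9.

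Srgn, the core of intracellular granule proteoglycans, rose from 42.7, 41.96 and 41.8 to 146, 145 and 146 FPKM in wild-type (1.76, SE 0.027, adjusted p = 2.31e-13) and from 64.7, 63.9 and 61.7 to 135, 131 and 130.5 in Nlrp3-/- BMDMs (1.05, SE 0.027, adjusted p = 2.19e-11). Agrn, a basement membrane heparan sulfate core, rose from 2.44, 2.63 and 2.28 to 9.11, 8.40 and 9.05 FPKM (1.51, adjusted p = 1.51e-10) and from 3.94, 4.11 and 3.99 to 18.3, 18.8 and 19.5 FPKM (1.99, adjusted p = 1.91e-11). Vcan, a large chondroitin sulfate core, rose from 2.80, 2.58 and 2.64 to 10.6, 9.89 and 10.4 FPKM in wild-type (1.62, adjusted p = 3.82e-11). In Nlrp3-/- BMDMs Vcan was 14.2, 15.4 and 14.3 FPKM without and 15.3, 14.7 and 15.4 with stimulation (0.045, adjusted p = 0.385), and its interaction was -1.58, adjusted p = 6.2e-08.

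Among the DEGs of this wider list Sgsh and Hpse fell the most in both genotypes, followed by Hmmr in wild-type and Hyal1 in Nlrp3-/- BMDMs. Sgsh, a lysosomal sulfamidase that acts on heparan sulfate, fell from 22.4, 22.7 and 23.3 to 2.80, 2.60 and 2.90 FPKM in wild-type (-2.66, adjusted p = 5.66e-13) and from 19.1, 19.4 and 18.4 to 4.07, 3.72 and 3.78 in Nlrp3-/- BMDMs (-2.04, adjusted p = 6.37e-12). Hpse, heparanase, which cuts heparan chains, fell from 147, 144 and 147 to 21.6, 23.6 and 23.8 FPKM (-2.61, adjusted p = 2.04e-13) and from 66.7, 69.7 and 66.6 to 13.5, 13.2 and 13.8 FPKM (-2.24, adjusted p = 8.86e-13). Hyal1, a lysosomal hyaluronidase, fell from 7.32, 7.23 and 7.79 to 1.116, 1.71 and 1.44 FPKM (-1.81, adjusted p = 1.56e-08) and from 6.97, 6.50 and 7.56 to 0.790, 1.19 and 1.14 FPKM (-1.98, adjusted p = 9.68e-09). Hmmr, a hyaluronan-binding protein best known for its part in mitosis, fell from 4.55, 4.53 and 3.74 to 0.491, 0.555 and 0.454 FPKM in wild-type (-1.81, adjusted p = 3.2e-09) and from 5.39, 5.18 and 4.67 to 2.19, 2.09 and 2.66 in Nlrp3-/- BMDMs (-0.88, adjusted p = 2.33e-06).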

How the data were processed

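Total RNA of BMDMs was sequenced as 12 TruSeq libraries, 3 per group. The authors deposited 1 table of FPKM values for 55335 genes, with 1 column per library and 0 columns outside the series; per the labels the build was GRCm39 and DESeq2 1.24.0 was among the tools, while the aligner, the counter and the handling of strand are not given in the sources used here. FPKM sums were 283278 to 299393, 21122 to 22613 genes were above 0, and the relative depth inferred from low values was 1.0 to 1.22, the absolute depth being unknown. Correlations within groups were 0.990 to 0.993 and no 2 libraries were identical.

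The test was limma 3.58.1 under R 4.3.3, on log2(FPKM + 1) and with a trended variance, in 1 fit of 4 group means. It ran on the 12622 genes that reached 1 FPKM in 3 or more libraries; a log2 change on this scale understates the change of low genes. P-values were adjusted over all 12622 genes by the Benjamini-Hochberg method. On simulated data with 200 genes changed by 1.5 (log2) in the wild-type stimulation contrast, 193 (96.5%) were recovered with 1 false call among 12622 genes. The alternatives tried were no fold limit, a pseudocount of 0.1, no filter or one of 5 FPKM, TPM, median-ratio and upper-quartile scaling, a replicate block, no variance trend, the compared groups alone and leaving out each library.

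The members, the other genes of the pathway and the cell markers were chosen with earlier results of these data known. All members are accounted for. Values in every library are given for members that were DEGs for stimulation or for the interaction, for members at least 1 apart (log2) between genotypes in both states without overlap, and for the member with the highest mean of each step; library values of other members were added after their values were seen. Of the other pathway genes, the DEGs with the 3 largest rises and falls per stimulation contrast and Srgn are named. Nlrp3, Xist and Nnt check the labels, Nnt added after its values were seen, and Col1a1 leads the fibroblast markers. Positions and exon overlaps came from GENCODE M21 (GRCm38), in which 55154 of 55335 gene identifiers and all 39 members matched; promoter sequences came from RefSeq (GRCm38.p6). Neither is the build named for the files. Protein sequences are not used here.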

Additional observations from a re-analysis of the deposited data

Results flagged for a closer look

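For 12 members the interaction had an adjusted p under 0.05 (limma), each with a term under 1 in size. As stated above, these p-values are not free of the choice of the members, which was made with genotype differences known. The term, the Nlrp3-/- change minus the wild-type change on the log2 scale, was -0.62 for Sulf1, -0.49 for Chst15, -0.41 for Sdc2, -0.38 for Chpf and -0.35 for Ext1. It was 0.57 for Dse, 0.49 for Ndst1, 0.40 for Chst14, 0.38 for Ext2, 0.37 for Sdc4, 0.30 for Hs6st1 and 0.21 for Sdc3. Hs6st2 had a term of 0.29 that met the same criterion, but it reached the FPKM limit only through the stimulated Nlrp3-/- libraries, its term turned to -0.30 with a pseudocount of 0.1, and its ratio of means, LPS+ATP over control, was smaller in Nlrp3-/- (2.39) than in wild-type BMDMs (5.97), so its term is not read as a difference. The separate changes in wild-type and Nlrp3-/- BMDMs were 0.72 and 0.10 for Sulf1, 0.24 and -0.25 for Chst15, and -0.78 and -0.21 for Dse. Over all tested genes 27.7% met the same criterion.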

How the results depend on the processing

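Numbers of members called DEG were compared over the alternatives. Without the fold limit they were 32 and 28 for stimulation in wild-type and Nlrp3-/- BMDMs, 13 for the interaction, and 25 and 26 between genotypes without and with LPS+ATP, in place of 7, 7, 0, 9 and 6. The numbers between genotypes describe the values on which the members were chosen and are no test of them. Without the fold limit they also include Hs6st2, Chst7 and Chst15, which the filter kept for their Nlrp3-/- values. Over all tested genes the share between genotypes was 47.8% without and 48.5% with LPS+ATP when no fold limit was set, and 6.71% and 5.05% with the limit. A pseudocount of 0.1, under which low genes weigh more by construction, gave 12 for stimulation in wild-type BMDMs, 1 for the interaction (Sulf1, -1.08) and 12 between stimulated genotypes, and TPM gave 12 for the last. Between unstimulated genotypes median-ratio scaling gave 5 and upper-quartile scaling 4, and between stimulated genotypes upper-quartile scaling gave 3; these scalings shift all differences together. Leaving out 1 library at a time gave 6 to 9 for stimulation in wild-type and 6 to 7 in Nlrp3-/- BMDMs, 0 for the interaction, 9 between unstimulated and 5 to 7 between stimulated genotypes. Every other alternative stayed within 1.5 times the reported number. Single changes that passed the adjusted p turned sign in 10 comparisons. Under median-ratio and upper-quartile scaling these were B3gat3 (0.13 and 0.12) and Chsy1 (0.10 and 0.098) in stimulated wild-type, Chsy1 (0.15 and 0.14) and Dse (0.075 and 0.069) in stimulated Nlrp3-/- BMDMs, and, under the latter, Csgalnact2 between unstimulated genotypes (-0.015). Hs6st2 turned to -0.30 for the interaction with the pseudocount of 0.1. The causes were not tested beyond these settings.

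No pairing of libraries by replicate number was seen. The 18 correlations of same-numbered libraries, as deviations from their group means, ran from -0.057 to 0.053, with 0 over 0.1. In 7 of the 18 comparisons a library was closest to its own number. Whether same-numbered libraries shared a mouse, a culture or a batch cannot be told from these values. With a replicate block the numbers of DEGs were 7, 7, 0, 9 and 6, as without it. Without read counts no counting error could be given, and with 3 libraries per group small changes depended on the scaling, as for B4galt7, which did not pass for stimulation as deposited and passed as a rise in both genotypes under median-ratio scaling (adjusted p = 0.0317 and 0.0314).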
